A study of Mus musculus with 24 samples.

Results

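The genes described are the receptors for serotonin, dopamine, noradrenaline and adrenaline, acetylcholine of the muscarinic type, and histamine. They were chosen by symbol, as every gene of the count files whose symbol begins with Htr1 to Htr7 or with Adra1, Adra2 or Adrb followed by a digit, or is one of Drd1 to Drd5, Chrm1 to Chrm5 or Hrh1 to Hrh4. This gave 37 of 49568 gene symbols: 14 serotonin, 9 adrenergic, 5 dopamine, 5 muscarinic and 4 histamine receptor genes. Poly(A) RNA was sequenced from the hippocampus of male Aged mice of 21 to 23 months on a C57-Bl/6J background, 1 mouse per library and 6 per group. WTSH were wild type (WT) mice in standard housing, WTEE were WT mice in enriched housing, and KDSH and KDEE were MSK1 KD mice in standard and enriched housing. Enriched mice entered large cages with a running wheel and changing toys at 18 months of age, and lived in larger groups than standard-housed mice. MSK1 KD mice are homozygous for a point mutation that inactivates the N-terminal kinase domain of MSK1 in every cell. WT and MSK1 KD mice were bred as separate lines, so genotype and line cannot be told apart, and nothing in the labels says which mice shared a cage. Mouse numbers 1 to 8 were all standard-housed and 9 to 17 all enriched, with both among 18 to 24. The labels do not say what the numbers record, so any effect tied to them cannot be fully told apart from housing.

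Monoamines and acetylcholine reach the hippocampus in axons whose cell bodies lie elsewhere, in the raphe nuclei, locus coeruleus, ventral tegmental area, tuberomammillary nucleus and medial septum. Apart from Htr3a and Htr3b, which encode subunits of a ligand-gated cation channel, these receptors signal through G proteins: Gs raises cyclic AMP, Gi/o lowers it, and Gq drives phospholipase C. MSK1 is a nuclear kinase that phosphorylates CREB and histone H3 after activation by MAP kinases, and these receptors are among the inputs that can reach those kinases.

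Following the study, WTSH samples 4 and 7 and KDSH sample 6 were kept apart, which left 21 libraries, 4 of WTSH, 6 of WTEE, 5 of KDSH and 6 of KDEE. Counts on genes ranged from 27410239 to 71907130 per library in the 21 and from 15800187 to 39585901 in the 3 others. The receptor genes together took 594.7 to 768 CPM, that is, counts scaled to equal library totals. All 12 markers of hippocampal principal neurons were read in every library, from Iyd at 1.497 to 3.201 CPM to Zbtb20 at 90.1 to 382.7 CPM. The level of Rps6ka5, which encodes MSK1, does not check the genotypes, since a point mutation need not change it, and its group means lay between 1043 and 1158 normalised counts. The authors report that they saw the mutation in the aligned reads of the MSK1 KD samples. No pair of libraries within a group was alike enough to be 1 library deposited again. Normalised count means here the count scaled by the library size and the TMM factor of edgeR to the mean library. In bulk tissue, fewer cells of a type and less RNA per cell cannot be told apart.

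One of the 21 libraries stood apart. In WTEE sample 10, 21 of the 32 receptor genes averaging 10 counts or more (65.6%) lay outside the range of the other 20 libraries, 14 below it and 7 above it. The same held for 58.1% of all 18941 genes at or above that average, against 3.11% to 16.6% in the other libraries. For several of the results below, values without this mouse are therefore also given.

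**Figure D1:**
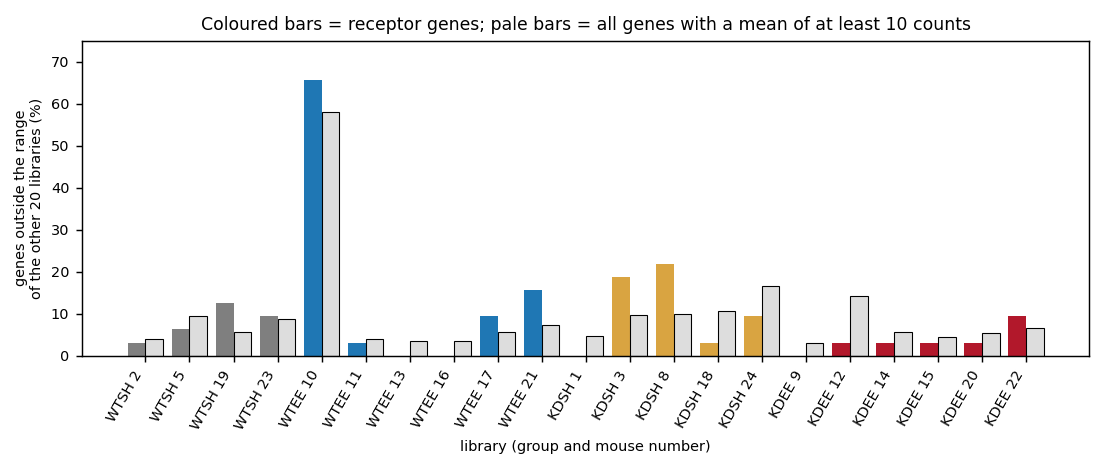
Share of genes (%, y axis) whose normalised count in a library lies outside the range of the other 20 libraries, by library (x axis). Coloured bars show the 32 receptor genes averaging 10 counts or more, in grey for WTSH, blue for WTEE, ochre for KDSH and red for KDEE, and pale bars show all 18941 genes at or above that average; WTEE sample 10 stands at 65.6% and 58.1%, with no other pale bar over 16.6%.

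The low receptor genes in WTEE sample 10 included Chrm5 at 21.2 normalised counts against 78.7 to 148.3 in the other libraries, Htr2a at 99.2 against 318.8 to 570.1, and Adra1a at 152.2 against 299.4 to 513.5. Chrm4 (373.6), Htr6 (163.7), Htr4 (347.6) and Htr1a (1140) were also below every other mouse. The genes above every other mouse included Hrh3 (3138), Hrh1 (703), Adra2c (2065), Adra1b (335.1), Htr5b (344.8) and Adrb3 (86.7). Members of every class except dopamine were therefore outside the range, and within the serotonin, adrenergic and histamine classes some were high and others low. Across 15044 protein-coding genes, the deviation of this library from the median of the others had a Spearman correlation of -0.575 with exon length, and across the 32 receptor genes it was -0.163. Both are across genes of 1 library, and genes are not independent replicates. The part of transcript length in these values was not tested. After this library, KDSH sample 8 had the most receptor genes outside the range of the others, 7 of 32 (21.9%), beside 9.9% of all genes. All 7 lay above it, Htr2a (570.1) and Chrm4 (1011) among them. Over all genes KDSH sample 24 came next, at 16.6%, with 9.38% of the receptor genes.

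Levels were compared between genes as RPKM, which is CPM divided by the annotated exon length in kilobases. For RPKM, and for the marker lists below, CPM was taken over the library size multiplied by the TMM factor instead of the library total. Muscarinic receptors held 33.9% ± 1.75 (SD, n = 21) of the RPKM summed over the 37 genes, adrenergic receptors 28.5% ± 1.17, serotonin receptors 22.9% ± 1.52, histamine receptors 11.5% ± 1.46 and dopamine receptors 3.27% ± 0.307. Over the libraries the muscarinic share ran from 27.9% to 36.2% and the histamine share from 9.99% to 17.1%. A single gene carried much of the signal in most classes: Hrh3 made up 75.05% to 84.3% of the histamine sum, Chrm1 54.8% to 67.5% of the muscarinic sum and Adra1d 41.0% to 58.6% of the adrenergic sum. The serotonin class was spread more evenly, with Htr1a at 15.4% to 23.8%.

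**Figure D2:**
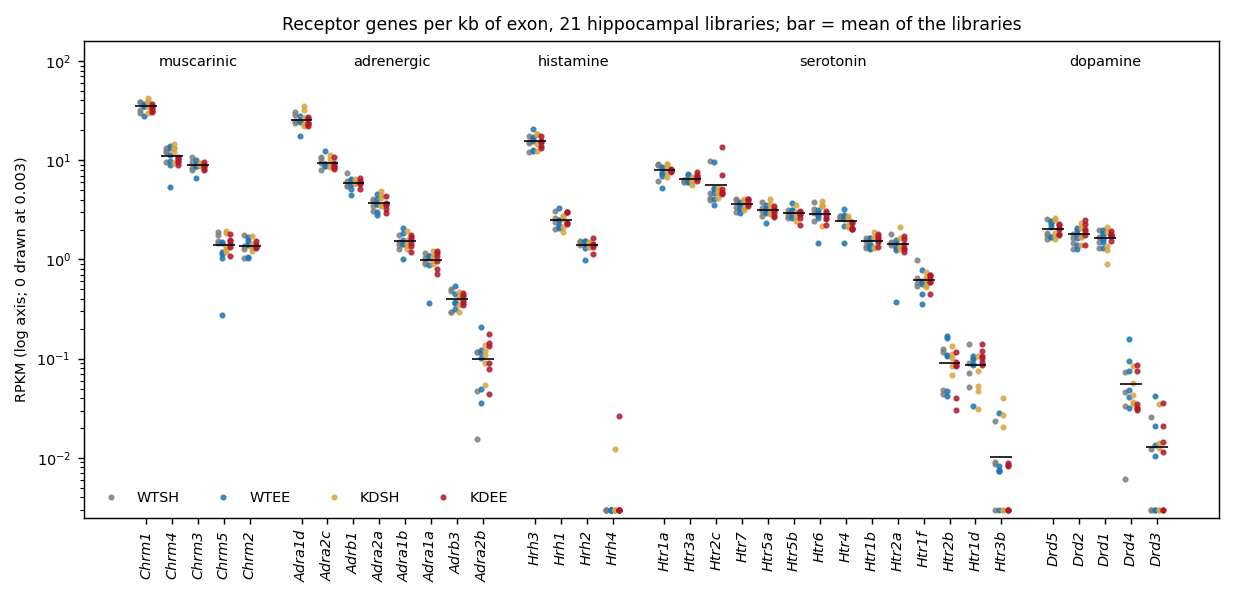
RPKM (y axis, log scale, values of 0 drawn at 0.003) of 36 of the 37 receptor genes (x axis, by class and falling mean). Each point is 1 of 21 libraries coloured by group and each bar is the mean of the libraries; Chrm1 has the highest mean (34.9), and the points of the 4 groups overlap for every gene.

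Chrm1, the Gq-coupled muscarinic receptor of principal neurons, had the highest level of all at 34.9 ± 3.65 RPKM (SD, n = 21). Adra1d, a Gq-coupled adrenergic receptor, followed at 25.6 ± 3.86, and Hrh3, the Gi/o-coupled histamine receptor that also acts as a presynaptic autoreceptor, at 15.6 ± 2.34. Chrm1 exceeded Adra1d in 21 of 21 libraries, Adra1d exceeded Hrh3 in 20, and Hrh3 exceeded the next gene, Chrm4, in 21. Chrm4 (11.1 ± 2.21), which couples to Gi/o, exceeded Adra2c (9.43 ± 1.14), a Gi/o-coupled adrenergic receptor, in 18 libraries. Adra2c and Chrm3 (8.86 ± 0.843), another Gq-coupled muscarinic receptor, could not be put in order, with Adra2c higher in 12 of 21.

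Among the serotonin receptors the order was Htr1a (7.90 ± 1.004), the Gi/o-coupled receptor that is also the autoreceptor of raphe neurons, Htr3a (6.48 ± 0.504), a channel subunit found in interneurons, and Htr2c (5.65 ± 2.44), a Gq-coupled receptor abundant in choroid plexus epithelium. Htr7, Htr5a, Htr5b, Htr6 and Htr4 lay between 3.61 and 2.42 RPKM, of which Htr7, Htr6 and Htr4 couple to Gs. Htr5b was above Htr6 in only 9 of 21 libraries. Htr1b (1.52), Htr2a (1.42) and Htr1f (0.615) came below these, and Htr2b (0.0914) and Htr1d (0.0872) were far lower.

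The cyclic AMP raising Adrb1 (5.91 ± 0.609) was well above its relative Adrb3 (0.396 ± 0.0701). Adra2a (3.71 ± 0.552) and Htr7 (3.61 ± 0.363) were level, with Adra2a higher in 9 of 21 libraries. Adra1b was at 1.52, Adra1a at 0.987 and Adra2b at 0.1002 RPKM. Hrh1 (2.52 ± 0.389) and Hrh2 (1.41 ± 0.145), coupled to Gq and Gs, were minor beside Hrh3.

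The dopamine receptors were low as a class. Drd5 (2.03 ± 0.334), a Gs-coupled receptor, led Drd2 (1.78 ± 0.349), which is Gi/o-coupled, in 15 of 21 libraries, and Drd2 led Drd1 (1.64 ± 0.298) in 13, so the 3 genes could not be put in a firm order. As a description with no test, the dopamine share of the summed RPKM was 3.001% ± 0.144 in WTSH (SD, n = 4), 3.38% ± 0.387 in WTEE (n = 6), 3.08% ± 0.156 in KDSH (n = 5) and 3.49% ± 0.178 in KDEE (n = 6).

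5 genes had a mean under 10 counts over the 21 libraries and are near the detection limit. Htr2b (mean of 9.29 counts) and Drd4 (9.14) were read in every library. Htr3b, the partner subunit of Htr3a, had a mean of 1.14 counts and was at 0 in 7 libraries. Drd3, best known from the ventral striatum, had a mean of 1.05 counts and was at 0 in 8. Hrh4, a receptor of immune cells, had a mean of 0.143 counts and was at 0 in 19. A count of 0 allows up to 3 counts in a library, so no fold is given for the 3 genes, which also failed the filter on low counts. Of the 37 genes 34 passed that filter, 13 of 14 serotonin, 9 of 9 adrenergic, 5 of 5 muscarinic, 4 of 5 dopamine and 3 of 4 histamine.

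The order depends on gene models and on counting. In the GENCODE M21 annotation (GRCm38), 17 of the 37 genes have their coding sequence in 1 exon. The models of Chrm4 (chromosome 2, 91927249 to 91928688) and Chrm5 (chromosome 2, 112479171 to 112480769) hold the coding sequence and 3 further bases. The authors counted reads with another annotation release, so the lengths used here may differ from those of the counted models. With the longest transcript in place of all exons, the RPKM of Adra1a was 2.04 times and that of Htr2c 1.91 times as high, and Htr2c then ranked 6 of 37 in place of 10. Exons of 9 genes overlap another gene on the opposite strand, and reads were counted without strand, so these counts are uncertain in part. The overlap was longest for Drd5 (1531 bases), Htr1b (852) and Adrb3 (839), and shorter for Chrm1 (329), Hrh3 (349), Adra1d (147), Htr2b (252), Hrh2 (145) and Chrm2 (142).

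To ask whether housing or MSK1 changed these levels, 7 comparisons were fitted over all 20187 genes that passed the filter, with calls made where the p value after Benjamini-Hochberg adjustment was below 0.05 and the log2 fold change was beyond 0.38 in either direction. None of the 34 receptor genes was called in any of the 7 by the quasi-likelihood test of edgeR. With this test 0% of all genes were called in 6 comparisons, and 1 gene (0.00495%), which is not a receptor gene, in enriched against standard housing over both genotypes. The Wald test of DESeq2 also called 0 receptor genes, while over all genes it called 2 in WTEE against WTSH, 14 in KDEE against KDSH, 0 in KDSH against WTSH, 118 in KDEE against WTEE, 41 for housing over both genotypes, 0 for genotype over both housings and 20 for the interaction. At an unadjusted p value under 0.05, 1 of 34 receptor genes (2.94%) passed in WTEE against WTSH, beside 6.55% of all genes, and 1 (2.94%) in KDEE against KDSH, beside 11.6%. Over both genotypes 3 (8.82%) passed for housing, beside 18.9% of all genes. No receptor gene passed in KDSH against WTSH, KDEE against WTEE, MSK1 KD against WT over both housings or the interaction, beside 1%, 4.99%, 1.9% and 3.26% of all genes. With all 21 libraries the share of receptor genes was below the background in each comparison. Each share rests on at most 3 of 34 genes, so no difference from the background is read from it. The values of the groups overlapped for all 34 receptor genes in the 4 comparisons of single groups, where 0.986% (WTEE and WTSH), 1.84% (KDEE and KDSH), 0.644% (KDSH and WTSH) and 0.624% (KDEE and WTEE) of all genes had groups that did not.

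The fitted changes were small for most receptor genes. Their median log2 fold change was -0.02 in WTEE against WTSH, -0.05 in KDEE against KDSH, 0.03 in KDSH against WTSH and 0.01 in KDEE against WTEE, beside 0.01, 0.00, -0.00 and 0.00 over all genes. Over both genotypes the median was -0.03 for housing (all genes 0.01), and over both housings it was 0.02 for genotype (all genes -0.00). For the interaction the median was -0.02 (all genes -0.00), and 6 receptor genes had a fitted change beyond 0.38 in either direction. The 95% interval lay wholly within 0.38 of 0 for 14 of 34 receptor genes in WTEE against WTSH, beside 45.1% of all genes. It did so for 15 in KDEE against KDSH, beside 47.6%, for 14 in KDSH against WTSH, beside 53.5%, and for 20 in KDEE against WTEE, beside 55%. In the interaction, the least precise, it did so for only 4, beside 36.5%. For these genes a change as large as the threshold lies outside the interval, and for the others the data cannot set one aside.

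**Figure D3:**
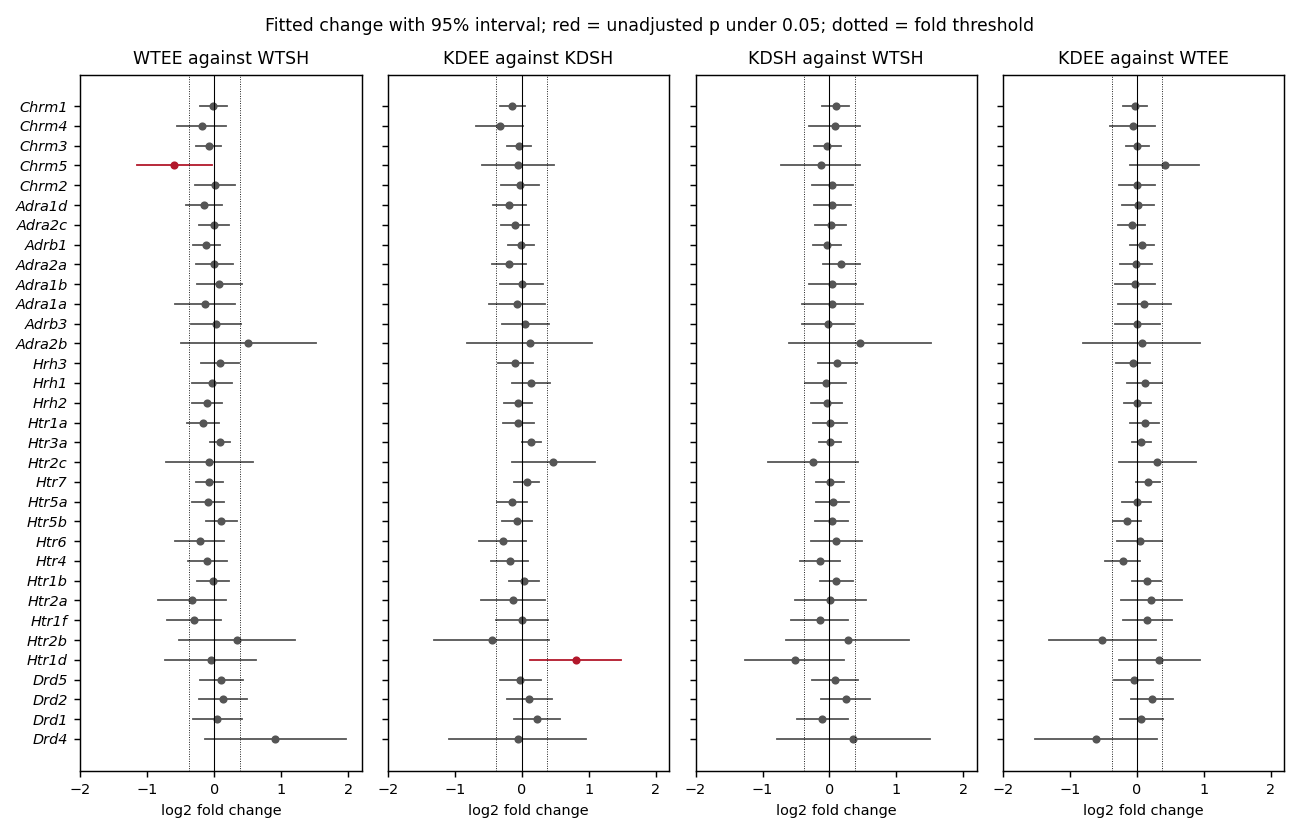
Log2 fold change (x axis) of 33 of the 34 receptor genes tested (y axis, by class) in the 4 comparisons of single groups, as points with 95% intervals. Dotted lines mark 0.38 to either side of 0 and red marks an unadjusted p value under 0.05, which 1 gene reached in WTEE against WTSH (Chrm5) and 1 in KDEE against KDSH (Htr1d), none of them after adjustment.

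Precision differed strongly between members. The within-group SD on the log2 scale had a median of 0.24 over the 34 genes (0.21 over all genes) and ran from 0.10 for Htr3a to 0.76 for Adra2b. Without WTEE sample 10 the medians were 0.21 and 0.16. Among the widest were genes with few counts such as Drd4, whose fitted changes in single comparisons ran from -0.62 to 0.91.

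Chrm5, a Gq-coupled muscarinic receptor, had the smallest p value in WTEE against WTSH. Its normalised counts in WTSH were 116.7, 135.1, 113.1 and 146.2 in mice 2, 5, 19 and 23. In WTEE they ran from 21.2 to 114.1 with a median of 89.3, in KDSH they were 141.3, 103.5, 148.3, 90.4 and 98.7 in mice 1, 3, 8, 18 and 24, and in KDEE they ran from 84.1 to 139.6 with a median of 114.3. The lowest 4 of the 6 WTEE values lay below the WTSH range and the others overlapped with it. The log2 fold change was -0.60 ± 0.27 (SE), with an adjusted p of 0.651 by the quasi-likelihood test of edgeR. Without WTEE sample 10, whose 21.2 was the lowest value, it was -0.40 with an adjusted p of 0.9995 in the same fit of edgeR. The unadjusted p value of Chrm5 was still under 0.05 there, 1 of 34 receptor genes beside 3.93% of all genes.

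Htr1d, a Gi/o-coupled serotonin receptor of axon terminals, had the smallest p value in KDEE against KDSH. KDSH held 11.5, 8.14, 7.31, 4.76 and 16.4 normalised counts in mice 1, 3, 8, 18 and 24, and KDEE ran from 13.3 to 21.7 with a median of 15.99. In WTSH the values were 13.8, 10.9, 21.7 and 8.01 in mice 2, 5, 19 and 23, and in WTEE they ran from 5.13 to 16.3 with a median of 14.4. KDEE and KDSH overlapped only through KDSH mouse 24. The log2 fold change was 0.80 ± 0.33 (SE), with an adjusted p of 0.396 by the quasi-likelihood test of edgeR. The gene stood at 13.4 counts on average, so these values rest on few reads.

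Over both genotypes, Htr3a, Chrm4 and Htr6 reached an unadjusted p value under 0.05 for housing. Htr3a had 609.2, 609.8, 625.9 and 629.9 normalised counts in WTSH mice 2, 5, 19 and 23, and 601.8 to 734.8 with a median of 634.8 in WTEE. It had 673.4, 660.6, 611.9, 605.5 and 560.2 in KDSH mice 1, 3, 8, 18 and 24, and 618.3 to 754.7 with a median of 683.1 in KDEE. Enriched and standard values overlapped in both genotypes, and the log2 fold change was 0.11 ± 0.05 (SE) with an adjusted p of 0.256 by the quasi-likelihood test of edgeR.

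Chrm4 had 926.5, 838.2, 668.4 and 860.2 normalised counts in WTSH mice 2, 5, 19 and 23, and 373.6 to 960.4 with a median of 728.1 in WTEE. In KDSH it had 840.0, 915.3, 1011, 652.1 and 928.9 in mice 1, 3, 8, 18 and 24, and in KDEE 623.4 to 737.3 with a median of 691.1. In MSK1 KD mice the enriched values were narrow and lay under 4 of the 5 standard ones, while in WT mice the groups overlapped widely. The log2 fold change over both genotypes was -0.26 ± 0.12 (SE), with an adjusted p of 0.256 by the same test.

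Htr6, a Gs-coupled serotonin receptor, had 425.6, 358.5, 273.2 and 327.5 normalised counts in WTSH mice 2, 5, 19 and 23, and 163.7 to 356.4 with a median of 318.9 in WTEE. KDSH held 391.9, 435.0, 386.4, 245.6 and 401.6 in mice 1, 3, 8, 18 and 24, and KDEE 252.9 to 346.2 with a median of 305.0. The groups overlapped in both genotypes. The log2 fold change was -0.25 ± 0.12 (SE), with an adjusted p of 0.264 by the same test, and it was -0.19 without WTEE sample 10 and -0.16 with the choroid plexus list described below as a covariate. The unadjusted p value was over 0.05 without that mouse.

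**Figure D4:**
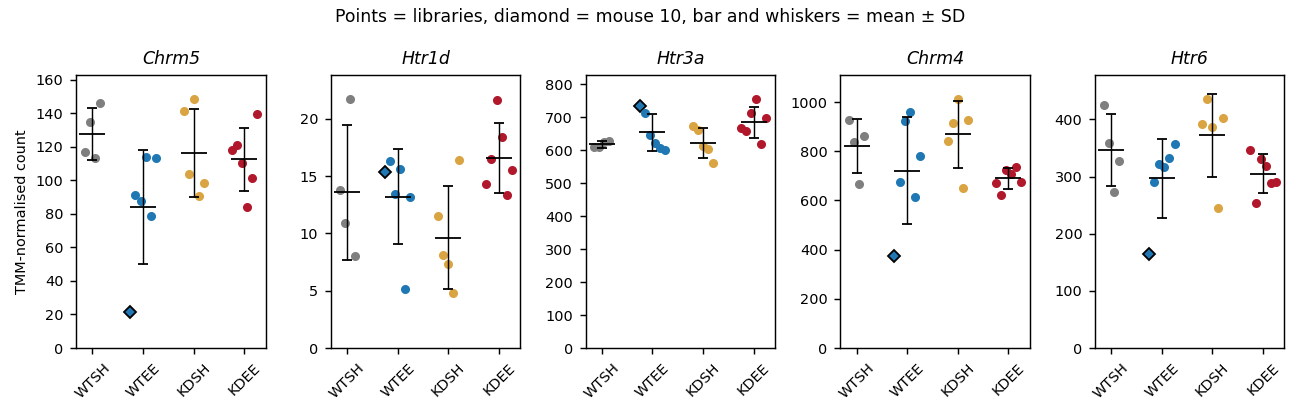
TMM-normalised counts (y axis, from 0) of Chrm5, Htr1d, Htr3a, Chrm4 and Htr6 in the 4 groups (x axis). Points are libraries, the diamond is WTEE sample 10, and bars with whiskers are the mean and SD; the diamond is the lowest WTEE point for Chrm5 (21.2), Chrm4 (373.6) and Htr6 (163.7), and the groups overlap in every panel.

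Without WTEE sample 10, 0 receptor genes were called in any of the 7 comparisons. In KDEE against KDSH, Chrm4, Htr1d, Htr3a and Htr6 then had an unadjusted p value under 0.05, 4 of 34 beside 22.1% of all genes, with a lowest adjusted p of 0.129 (Chrm4, edgeR). Htr4, a Gs-coupled serotonin receptor, is named after its values were seen. In KDEE against WTEE its log2 fold change was -0.22 with all 21 libraries (adjusted p = 0.957, edgeR) and -0.33 without this mouse (adjusted p = 0.352), when it was 1 of 34 receptor genes with an unadjusted p value under 0.05, beside 5.49% of all genes. In MSK1 KD against WT over both housings it was -0.18 with all 21 libraries (adjusted p = 0.9996, edgeR), where its unadjusted p value was over 0.05. Without this mouse it was -0.24 (adjusted p = 0.9999, edgeR), and Htr4 was again 1 of 34 (2.94%) under that p value, beside 2.15% of all genes. Its KDEE values ran from 475.0 to 563.4 and its WTEE values from 347.6, in sample 10, to 760.2.

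For the 13 genes described by library, exact two-sided permutation tests of the normalised counts were run for the 4 comparisons of single groups. The lowest adjusted p over these 52 tests was 0.562, and since some of the genes were described because of their p value in the same comparisons, the tests add no independent evidence.

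The leading genes of the classes overlapped between groups throughout. Chrm1 had 12056, 11912, 9347 and 10061 normalised counts in WTSH mice 2, 5, 19 and 23, and 8638 to 11444 with a median of 11082 in WTEE. KDSH held 12422, 13243, 12002, 9309 and 10771 in mice 1, 3, 8, 18 and 24, and KDEE 9606 to 11374 with a median of 10534. In standard housing, mice 1, 2, 3, 5 and 8 (11912 to 13243) all lay above mice 18, 19, 23 and 24 (9309 to 10771). Adra1d and Hrh3, below, split by mouse number in the same way, while Htr1a did not. The part of mouse number in these values was not tested. The 4 groups overlapped, and the log2 fold change in KDEE against KDSH was -0.14, or -0.08 without KDSH mouse 3 and -0.09 with the choroid plexus list as a covariate.

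Adra1d had 2608, 2800, 2145 and 2271 normalised counts in WTSH mice 2, 5, 19 and 23, and 1606 to 2574 with a median of 2262 in WTEE. KDSH held 2953, 3195, 2416, 2005 and 2092 in mice 1, 3, 8, 18 and 24, and KDEE 2027 to 2460 with a median of 2161. Standard and enriched values overlapped in both genotypes.

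Hrh3 had 2649, 2296, 1847 and 2280 normalised counts in WTSH mice 2, 5, 19 and 23, and 1880 to 3138 with a median of 2450 in WTEE. KDSH held 2733, 2751, 2758, 1887 and 2178 in mice 1, 3, 8, 18 and 24, and KDEE 1991 to 2674 with a median of 2339. Here too all groups overlapped. Htr1a had 1911, 1961, 1315 and 1918 normalised counts in WTSH mice 2, 5, 19 and 23 and 1140 to 1830 with a median of 1606 in WTEE. It had 1850, 1956, 1981, 1458 and 1646 in KDSH mice 1, 3, 8, 18 and 24 and a narrow range of 1652 to 1740 in KDEE.

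Of the dopamine receptors, Drd5 had 264.3, 388.3, 278.6 and 245.4 normalised counts in WTSH mice 2, 5, 19 and 23, and 252.3 to 367.4 with a median of 331.8 in WTEE. KDSH held 381.5, 393.1, 278.8, 262.8 and 240.7 in mice 1, 3, 8, 18 and 24, and KDEE 265.3 to 341.5 with a median of 308.1. The groups overlapped.

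Drd1 had 294.0, 259.2, 229.7 and 347.5 normalised counts in WTSH mice 2, 5, 19 and 23, and 226.6 to 347.3 with a median of 296.2 in WTEE. KDSH held 216.0, 157.0, 328.9, 239.9 and 367.6 in mice 1, 3, 8, 18 and 24, and KDEE 269.7 to 337.7 with a median of 305.7. KDSH was the widest group and enclosed KDEE.

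Drd2 had 219.7, 180.7, 203.5 and 156.2 normalised counts in WTSH mice 2, 5, 19 and 23, and 157.4 to 253.2 with a median of 210.5 in WTEE. KDSH held 285.0, 254.7, 207.8, 171.4 and 205.5 in mice 1, 3, 8, 18 and 24, and KDEE 170.6 to 306.4 with a median of 240.2. MSK1 KD against WT over both housings gave a log2 fold change of 0.23 ± 0.12 (SE), with an adjusted p of 0.9996 by the quasi-likelihood test of edgeR, and the groups overlapped. Drd1 and Drd2 are abundant in striatum and Drd2 in pituitary. The 10 markers of striatum summed to 156.8 to 222.1 CPM in the 21 libraries, and the correlation of Drd2 with their mean, centred within groups, had r = 0.362 (p = 0.138, adjusted p = 0.238, permutation test, n = 21) and rho = 0.306 (adjusted p = 0.332). Without the 2 libraries farthest from the median of that list r was 0.0513. The 8 pituitary markers summed to at most 28.2 CPM except in KDSH sample 8, with 247.9 CPM, where Drd2 stood at 207.8. Of the 6 relations computed, Drd1 with striatum, Hrh3 with striatum, Drd1 with Drd2 and Htr3a with markers of interneurons from the caudal ganglionic eminence also had adjusted p values of 0.238 or more. For the last, Htr2c with choroid plexus, the libraries formed separate clusters and no coefficient is given.

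Htr2c lies on chromosome X (146962513 to 147197277). Its within-group SD on the log2 scale was 0.50, which Chrm5, Htr2b, Drd4 and Adra2b exceeded. The mean log2 CPM of 12 choroid plexus markers, Ttr and Folr1 among them, lay from 4.81 to 6.72 in 5 libraries and from -0.46 to 1.21 in the other 16. The 5 came from 3 groups, WTSH (mouse 19), WTEE (mice 10 and 13) and KDEE (mice 12 and 14). Their Htr2c counts were 4408 in WTSH mouse 19, 4293 in WTEE mouse 13, 6074 in KDEE mouse 12, 3161 in KDEE mouse 14 and 2302 in WTEE mouse 10. The other 16 libraries ran from 1576 to 2365 with a median of 2105, so 4 of the 5 were above all 16 and WTEE mouse 10 was inside their range.

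**Figure D5:**
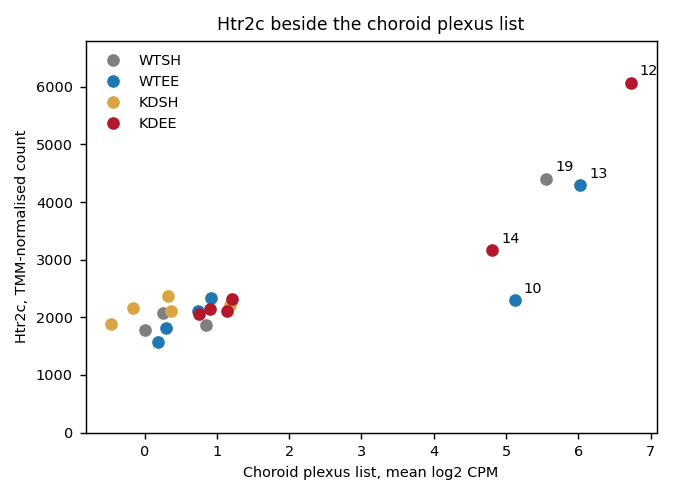
Htr2c in TMM-normalised counts (y axis, from 0) against the mean log2 CPM of the 12 choroid plexus markers (x axis), 1 point per library coloured by group, with mouse numbers at the 5 libraries above the gap. These 5 run from 2302 to 6074, and the 16 libraries below the gap lie between 1576 and 2365.

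Among the 16 libraries below the gap, Htr2c ran from 1783 to 2080 in WTSH (n = 3), 1576 to 2332 in WTEE (n = 4), 1878 to 2365 in KDSH (n = 5) and 2050 to 2323 in KDEE (n = 4), and the groups overlapped. With all 21 libraries the log2 fold change in KDEE against KDSH was 0.47. It was 0.13 without KDEE mouse 12 and -0.12 with the choroid plexus list as a covariate, and the adjusted p stayed over 0.05 in all 3 fits.

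Of 23 genes for the synthesis, transport and breakdown of the transmitters, 18 were tested and 0 were called in any comparison. The 5 that were not tested were Pnmt, Chat, Slc6a2, Slc6a4 and Slc18a3, which failed the filter on low counts. In enriched against standard housing over both genotypes 5 of the 18 had an unadjusted p value under 0.05, all higher in enriched mice, with a list median of 0.15 (log2) beside 0.01 over all genes and 18.9% of all genes below that p value. Maoa, which oxidises monoamines, was higher by 0.18 on the log2 scale (adjusted p = 0.196, edgeR), Hdc, which makes histamine, by 0.39 (0.229), Hnmt, which inactivates it, by 0.15 (0.245), Th, the tyrosine hydroxylase, by 0.28 (0.260) and Tph1, a tryptophan hydroxylase, by 0.89 (0.240). The values in brackets are adjusted p values. Without WTEE sample 10, 4 of the 18 (Hdc, Hnmt, Maoa and Tph1) had an unadjusted p value under 0.05, beside 18.8% of all genes. The mean log2 CPM of the list was highest in KDEE mice 12 (2.36) and 14 (2.23) and WTEE mice 13 (2.10) and 10 (2.06). All of these lay above the gap in the choroid plexus markers. WTEE mouse 16 (2.05), below the gap, came next, and the highest standard-housed library was WTSH mouse 19 (2.03), above it. Of the libraries above the gap only WTSH mouse 19 was standard-housed, and the part of choroid plexus tissue in the list was not tested. Tph1 had 90.6 and 126.1 normalised counts in KDEE mice 12 and 14 and 10.6 to 20.7 in the other 19 libraries, so its value rests on these 2 mice. In the remaining libraries above the gap it had 18.3 (WTEE mouse 10), 16.9 (WTEE mouse 13) and 17.2 (WTSH mouse 19). Without the 5 libraries above the gap, Tph1 was higher by 0.14 and Th by 0.13 on the log2 scale, 3 of the 18 genes (Hdc, Hnmt and Maoa) had an unadjusted p value under 0.05, beside 14.6% of all genes, and the list median was 0.13. With the choroid plexus list as a covariate it was 2 of 18 (Hdc and Maoa), beside 8.55%, and the median was 0.10.

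Of the 39 genes listed for G proteins, effectors and regulators 37 were in the files, all were tested and 0 were called. In the same comparison Gnas (-0.19, the Gs alpha subunit), Gnaz (-0.11, a Gi-family alpha subunit) and Grk3 (-0.19, a receptor kinase) were lower and Rgs2 (0.16, a brake on Gq) was higher, all at log2 scale and at an unadjusted p value under 0.05, with a lowest adjusted p of 0.229 (edgeR). These 4 of 37 (10.8%) stand beside 18.9% of all genes, and the list median was -0.03. WTEE sample 10 was low for this list, at a mean log2 CPM of 6.05 against 6.27 to 6.36 in the other 20 libraries. Of the 4 named genes, Grk3 was lowest there (4179 normalised counts against 6116 or more) and Rgs2 highest (2527 against at most 1917). Without it 9 of 37 (24.3%) had an unadjusted p value under 0.05, 6 lower and 3 higher, beside 18.8% of all genes, and 0 were called. Gnas, Grk3 and Rgs2 were among these 9 and Gnaz was not. Without the libraries above the choroid plexus gap the share was again 24.3%, 7 lower and 2 higher, beside 14.6% of all genes. With the choroid plexus list as a covariate it was 5.41%, 1 lower and 1 higher, beside 8.55%, and 0 were called in either fit.

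CREB binds the letters TGACGTCA or, more weakly, the core TGACG, so the promoters of the receptor genes were searched for both, on either strand, within 250 bases before and 50 after the RefSeq start. Of the 37 genes 28 had an entry, with 36 promoters. None held the full TGACGTCA, which occurs in 1.79% of 32851 mouse promoters. The core, which the full motif contains, was found in 3 of 36 (8.33%), beside 20.8% of all promoters. Among them, Adra2a and Adrb1 are shown with 12 bases to either side on the strand of the gene, with the core in capitals (RefSeq, GRCm38.p6), since few receptor promoters hold it.
Adra2a (chr19:54045178-54045206, plus strand): ccacgtgggggcTGACGccggctgctcgg
Adrb1 (chr19:56722015-56722043, plus strand): gctgcgggagccTGACGcgcggccccggg
The core lies 69 and 90 bases before the RefSeq start of Adra2a and Adrb1. For Adra2a that start lies within the longer GENCODE M21 model, which begins at 54044151. A match of letters is a description and does not show a site in use. In MSK1 KD against WT over both housings the log2 fold changes were 0.08 for Adra2a and 0.02 for Adrb1, each with an adjusted p of 0.9996 by edgeR.

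In the 3 libraries that were kept apart, 9 structural RNA genes, the ribosomal RNA models among them, summed to 293785, 300038 and 56934 CPM in WTSH samples 4 and 7 and KDSH sample 6, beside at most 25666 CPM in the 21. These CPM use library sizes multiplied by the TMM factor, so they are not shares of the counts. The factors came from all 24 libraries for the 3 and from the 21 for the others. After scaling over all 24 libraries together, 28 of 34 receptor genes in WTSH sample 4, 26 in WTSH sample 7 and 33 in KDSH sample 6 lay within the range of the 21 libraries, while 30.8%, 28.1% and 8.29% of all genes tested lay outside it. Htr2b stood out most, at 29.99 and 28.83 normalised counts in WTSH samples 4 and 7 against 2.86 to 16.1 in the 21. Htr2b is near the detection limit, and these libraries had only 15800187 and 23318036 counts on genes, so its values rest on few reads. Drd2 was low in both, at 138.7 and 136.3 against 145.3 to 287.0. In KDSH sample 6 only Htr1f was outside, at 39.7 against 41.3 to 113.6.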

How the data were processed

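Hippocampal poly(A) RNA of 24 mice was sequenced as read pairs, and the authors deposited raw HTSeq 0.6.1p1 counts per gene symbol, without normalisation, made from Skewer-trimmed reads after STAR 2.5 alignment to GRCm38. Groups came from the sample titles. Strand was not used, and PCR copies cannot be told apart, so limits from counts cover counting error only. The receptor genes and all gene lists were chosen with earlier results of these data known.

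Counts of 21 libraries were fitted in edgeR 4.0.16 (R 4.3.3) with TMM scaling, the default filter on low counts, the 4 groups in 1 model and the quasi-likelihood test, with adjustment over all 20187 genes. Enriched against standard housing and MSK1 KD against WT were also tested on the mean of the groups, with the interaction as the enrichment effect in MSK1 KD minus that in WT mice. Genes described by library were those with an unadjusted p value under 0.05 in any comparison, the highest per kb of each class, and Htr2c, Drd1 and Drd2. Of the 2 other lists, genes with an unadjusted p value under 0.05 for housing over both genotypes were named. Correlations used values centred within groups and 100000 permutations. Exon lengths came from GENCODE M21. The test was run first on simulated data. DESeq2 1.42.0, other scalings, filters, covariates and left-out libraries were the alternatives, and those for the 2 other lists were chosen after the data were seen. All count columns were used, and 0 columns of per-sample values were left aside. P values measure the spread between single mice. They treat mice as independent, although cage mates are not known and enriched mice lived in larger groups. Single values of 1 receptor gene and 1 promoter stretch are not reported here, though both count in the totals.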

Additional observations from a re-analysis of the deposited data

Results flagged for a closer look

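In each group of 4 to 6 libraries, the highest and lowest values of the 13 genes described by library were compared with the others by Dixon's criterion. Of 52 groups 9 (17.3%) held a value far from the rest, beside 11.4% of the groups over all genes tested, where chance gives about 1 in 20. The groups share libraries and are not independent. WTEE sample 10 gave 3 of them, Htr6 at 163.7, Chrm1 at 8638 and Adra1d at 1606 normalised counts, all low, in the library in which 58.1% of all genes lay outside the range of the others. Htr2c gave another 3, all high, at 4408 in WTSH sample 19, 4293 in WTEE sample 13 and 6074 in KDEE sample 12, each with a choroid plexus list above the gap. The last were Htr1a at 1315 in WTSH sample 19, Htr6 at 245.6 in KDSH sample 18 and Htr1d at 5.132 in WTEE sample 17, all low.

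In the libraries outside the comparisons, 8 values of receptor genes lay above all 21 libraries. WTSH sample 4 had Drd5 at 397.4, Hrh2 at 438.6 and Htr2b at 29.99 normalised counts. WTSH sample 7 had Adra1a at 495.4, Chrm5 at 144.2, Hrh2 at 443, Htr2a at 560.9 and Htr2b at 28.83. The values of Htr2b, which is near the detection limit, rest on few reads. These libraries also held the highest sums of structural RNA, and its part in these values was not tested. A further 7 values lay below all 21 libraries.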

How the results depend on the processing

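The number of receptor genes called was 0 in all 7 comparisons under every alternative run, including DESeq2, all 24 libraries, both covariates and leaving out any single one of the 21 libraries. Fitting only the groups compared could not be run for the 3 comparisons that need all groups. Over all genes, the Wald test of DESeq2 called 2 genes in WTEE against WTSH, 14 in KDEE against KDSH, 118 in KDEE against WTEE, 41 for housing over both genotypes and 20 for the interaction, where edgeR called 0, 0, 0, 1 and 0. Leaving out 1 library gave at most 6 genes for housing, without WTEE replicate 21. Direction turned in 3 results: Htr2c in KDEE against KDSH (-0.12 on the log2 scale with the choroid plexus list as covariate), Hrh3 in the interaction (0.068 in place of -0.18 without the 5 libraries above the choroid plexus gap, an alternative chosen after the data were seen) and the correlation of Drd1 with striatum (r = -0.0186 with all 24 libraries in place of 0.0131). Neither setting gave an adjusted p under 0.05 for any of the 3, and the causes were not tested. Chrm5 in WTEE against WTSH ran from -0.70 to -0.40 and Htr1d in KDEE against KDSH from 0.62 to 1.08 over the left-out libraries. No paired analysis was possible because mouse numbers run from 1 to 24 and none occurs in more than 1 group. Depth limits Drd3, Htr3b and Hrh4, which were not tested.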
